A study of Rattus norvegicus with 12 samples.

Results

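Transfer RNA synthetase, ATF4-branch and endoplasmic reticulum (ER) stress genes were followed in rat liver across 6 comparisons of sex, hypophysectomy and growth hormone (GH). The set lists 40 genes by symbol, and 32 of them were found among the 12489 genes that the array's probes name. The 32 comprise 14 cytosolic aminoacyl-tRNA synthetases, 7 genes of the ATF4 branch and 11 genes of ER folding and the unfolded protein response. No probe carried the symbol Hars, Mars, Sars, Vars, Ppp1r15a, Xbp1, Hsp90b1 or Sdf2l1, and those 8 genes were not analysed here. Each gene is represented by its brightest probe, and 8 of the 32 have several probes.

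The arrays held liver RNA of Fischer 344 rats aged 12 weeks. The tested RNAs were those of hypophysectomised ("Hypox") males given 1 or 2 injections of GH, of untreated Hypox males, of Hypox females and of intact males. They were set against untreated Hypox males, intact males, intact females or Hypox females. The 6 comparisons were Hypox males over intact males, Hypox females over intact females, Hypox males with 1 injection over Hypox males, Hypox males with 2 injections over Hypox males, intact males over intact females and Hypox males over Hypox females. Hypophysectomy removes the pituitary, so every GH-treated rat also lacked the other pituitary hormones. The pools without GH held 3 to 4 livers. The pool with 1 injection held 4 livers collected 30, 60 or 90 min after it. The pool with 2 injections held 5 livers, and its injections were 3 or 4 h apart. Its livers were thus collected longer after the first injection than those with 1 injection. In the comparison of 2 injections with 1, the number of injections and the time since the first cannot be told apart. Each comparison had 2 arrays with the dyes exchanged. The GH pools were the same on both arrays, so for them the spread between arrays does not include differences between treated animals. All values below are log2 ratios of the first-named RNA over the second, as a limma estimate ± SE with n = 2 arrays, unless said otherwise. A gene was called higher or lower at a Benjamini-Hochberg adjusted p under 0.05 over all probes tested in that comparison.

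Aminoacyl-tRNA synthetases attach each amino acid to its tRNA and so supply translation. ATF4 is a transcription factor whose mRNA is translated more when the initiation factor eIF2 is phosphorylated, by PERK (Eif2ak3) under ER stress or by GCN2 under amino acid shortage. It activates amino acid synthesis, amino acid transport and synthetase genes. Unfolded proteins in the ER also activate ATF6 and IRE1, which induce chaperones such as BiP (Hspa5). The liver, which secretes most plasma proteins, carries a large load of ER folding. In intact rats GH reaches the liver in pulses in males and more continuously in females.

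All 32 genes were tested in every comparison. 31 were well above background in all 24 array channels, and Ddit4 in 21. The share of probes well above background was 58.4% to 71.1% per channel, and no spot was saturated. All 10 hepatocyte markers looked for were found. 8 of them were well above background in all 24 channels, and Alb and Ttr had outlying spots on 3 and 2 arrays. For the 32 genes, the 4 ratios around the loop of intact and Hypox rats summed to a median of 0.039 in absolute value, where perfect closure gives 0, and to 0.19 at most. The second arrays that carried untreated Hypox male RNA stood apart in pancreatic acinar markers. Their median log2 ratio over the 7 tested was 0.12 and 2.12 on the 2 arrays of Hypox over intact males, -0.06 and -1.49 after 1 injection, and -0.17 and -1.62 after 2. Over the 10 tested in Hypox males over Hypox females it was -0.15 and 2.06. Without the second array, 24 of the 32 genes were called in Hypox over intact males, 4 after 1 injection and 21 after 2, against 25, 16 and 24 with both arrays. In bulk liver RNA, fewer cells of a type and less RNA per cell cannot be told apart.

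The genes were mostly lower in Hypox than in intact rats and mostly higher after GH, with the larger number and size of changes after 2 injections. In males, 2 of 32 genes were higher and 23 lower in Hypox rats, with a median log2 ratio of -0.41. Of all named genes, 20.1% were called higher and 20.9% lower there, with a median of 0.00. In females, 3 were higher and 14 lower in Hypox rats (median -0.24), where 19.1% of named genes were called higher and 20.5% lower (median -0.01).

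After 1 injection, 15 of 32 genes were higher and 1 lower (median 0.29), where 9.32% of named genes were called higher and 7.36% lower. After 2 injections, 23 were higher and 1 lower (median 0.73), where 18.5% of named genes were called higher and 18.1% lower. The median of all named genes was 0.00 after 1 injection and -0.01 after 2. Set against each other through the Hypox male RNA, 2 injections exceeded 1 by a called amount in 15 genes, and no gene was called the other way by limma or at an unadjusted p under 0.05, where 7.38% of named genes were called higher and 5.65% lower. Both GH comparisons, and Hypox over intact males, share the untreated Hypox male RNA, so their opposite directions are not independent of each other. The comparison of Hypox with intact females holds none of that RNA. Of the genes lower in Hypox females, 14 of 14 were also lower in Hypox males, and they make up 60.9% of the 23 genes lower in males. Among named genes tested in both sexes, the 1203 lower in both were 69.3% of those lower in females and 66.0% of those lower in males.

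**Figure D1:**
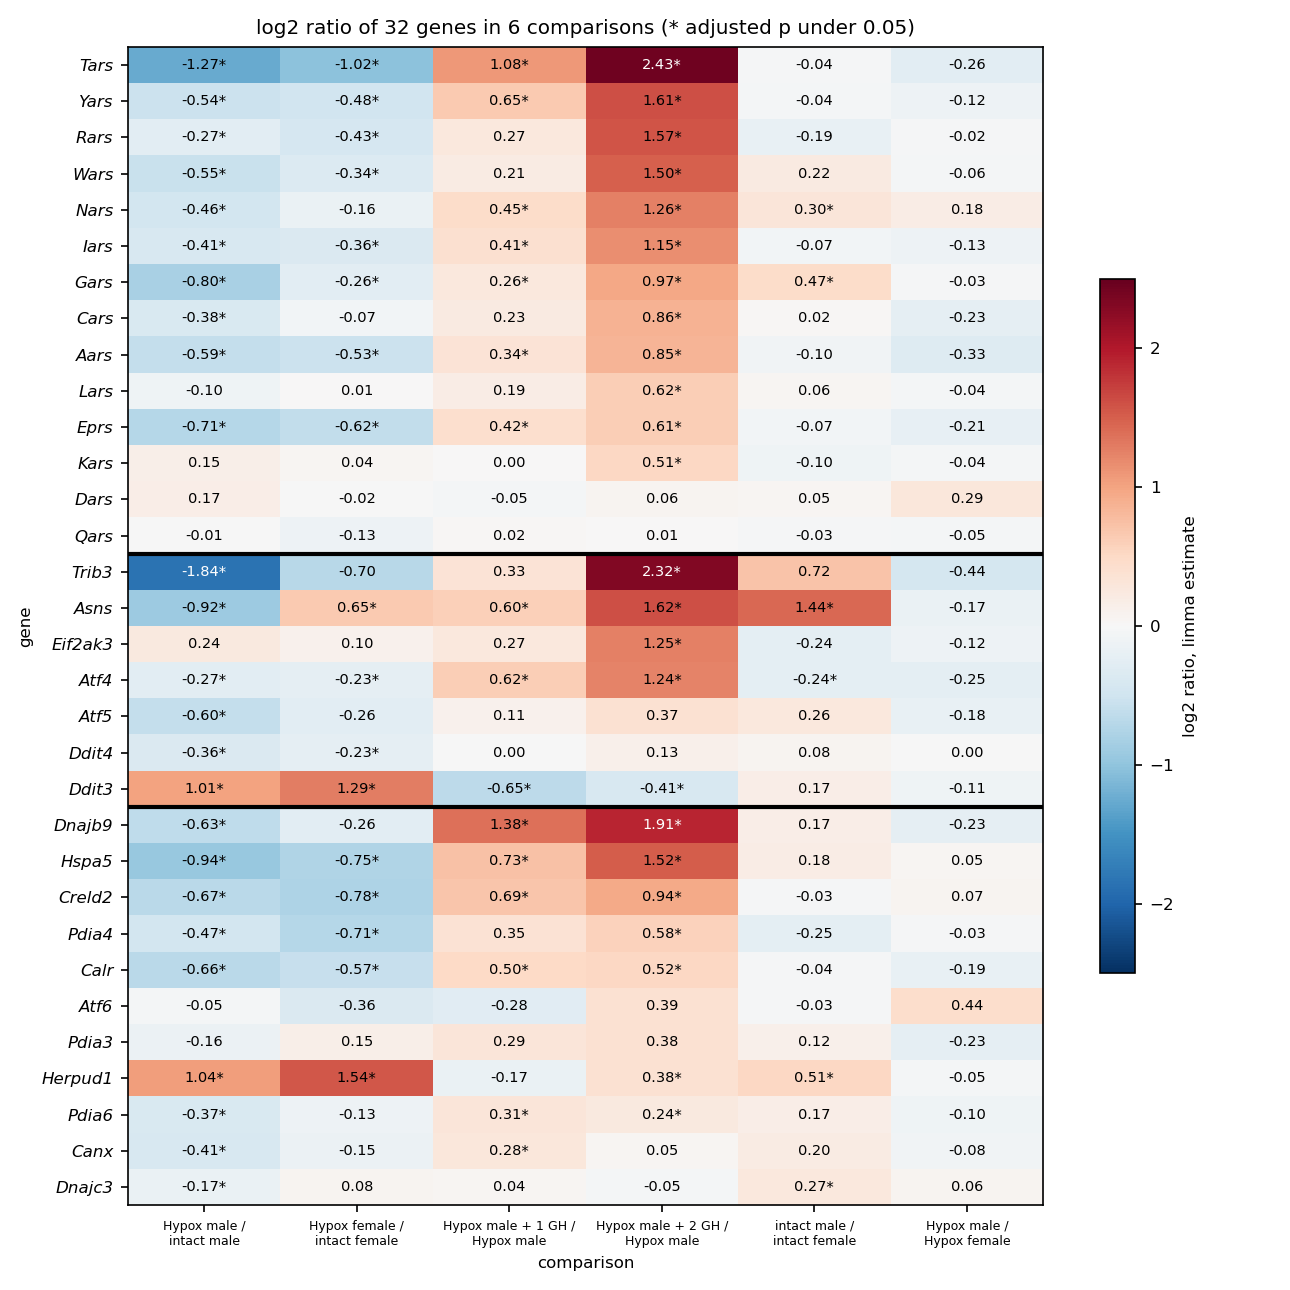
Heat map of the log2 ratio (limma estimate, 2 arrays each) of 32 genes, in rows, in 6 comparisons, in columns; red is higher and blue lower in the first-named RNA, and an asterisk marks an adjusted p under 0.05. The synthetase block is red with 2 GH injections (12 of 14 called) and mostly blue with hypophysectomy, while Ddit3 and Herpud1 are red with hypophysectomy in both sexes.

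The calls rest on loess normalization. With each array centred on its median instead, the median SE over tested probes after 2 injections was 0.244, against 0.0725 with loess, and 0 of the 32 genes were called in any comparison with limma, where 10 after 2 injections and 5 for hypophysectomy in males had an unadjusted p under 0.05.

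The threonyl-tRNA synthetase Tars and the pseudokinase Trib3 had the largest estimates of the 32 genes after 2 GH injections, Tars being the higher on 1 array and Trib3 on the other. Its log2 ratios were 1.13 and 1.03 on the arrays with 1 injection, and 2.51 and 2.34 on the arrays with 2 injections. The 4 values lie far from 0 and those with 2 injections do not overlap those with 1. Tars was 2.11-fold higher after 1 injection (1.08 ± 0.07, limma adjusted p = 7.88e-05) and 5.37-fold higher after 2 (2.43 ± 0.07, adjusted p = 7.24e-07), both over untreated Hypox males. The difference between 2 injections and 1 was itself called (1.35 ± 0.09, adjusted p = 0.000256). Hypox over intact rats gave -1.29 and -1.25 on the male arrays and -0.94 and -1.10 on the female arrays. Tars was 2.41-fold lower in Hypox than in intact males and 2.03-fold lower in Hypox than in intact females. Its normalised log2 intensity was 11.72 ± 0.13 in untreated Hypox males (SD, n = 8 channels), 12.84 ± 0.03 with 1 injection and 14.31 ± 0.17 with 2 (n = 2 channels each). Intact males, at 12.92 ± 0.08 (n = 4 channels), lay near the value with 1 injection and below that with 2.

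Of the 14 synthetases, 12 were higher after 2 injections, with estimates between 0.51 for Kars and 2.43 for Tars. After 1 injection 7 were higher, and 11 were higher with 2 injections than with 1. The tyrosyl enzyme Yars had 1.66 and 1.56 on the arrays with 2 injections and was 3.05-fold higher (1.61 ± 0.09, limma adjusted p = 1.01e-05). The arginyl enzyme Rars had 1.74 and 1.41 on the same comparison, a 2.98-fold difference (1.57 ± 0.08, adjusted p = 8.75e-06). The tryptophanyl enzyme Wars had 1.48 and 1.51 and was 2.82-fold higher (1.50 ± 0.06, adjusted p = 3.44e-06). All 6 of these array values exceed 1.4. By their brightest probes Rars and Wars were not called after 1 injection, at 0.27 ± 0.08 (adjusted p = 0.0672) and 0.21 ± 0.06 (adjusted p = 0.0678). Their second probes were called higher there, at 0.39 (limma adjusted p = 0.0212) and 0.26 (adjusted p = 0.0287). Both genes were called for 2 injections over 1 (1.30 ± 0.12 and 1.29 ± 0.09). The asparaginyl enzyme Nars had 1.63 and 0.90 with 2 injections, the widest gap between arrays among these enzymes, and its second probe gave 1.27 beside 1.26 for the brightest. The dye coefficient of Nars was also called, at -0.49. So were those of Dars, Gars, Kars, Lars and Wars, from -0.30 for Dars to 0.24 for Wars.

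The isoleucyl enzyme Iars rose by 1.15 ± 0.07 after 2 injections, the glycyl enzyme Gars by 0.97 ± 0.06, the cysteinyl enzyme Cars by 0.86 ± 0.08 and the alanyl enzyme Aars by 0.85 ± 0.08. The leucyl enzyme Lars, the bifunctional glutamyl-prolyl enzyme Eprs and the lysyl enzyme Kars rose by 0.62 ± 0.06, 0.61 ± 0.06 and 0.51 ± 0.05. Kars and Lars were called in no comparison but 2 injections over untreated Hypox males and 2 injections over 1. The second Lars probe was called in neither of these (0.46 and 0.48, limma adjusted p = 0.189 and 0.44). For 2 injections over 1, the call of Lars was kept in 5 of 14 other settings. The glutaminyl enzyme Qars and the aspartyl enzyme Dars were called in none of the 6 comparisons. Qars stayed between -0.13 and 0.02, and Dars between -0.05 and 0.29.

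With hypophysectomy 10 of 14 synthetases were lower in males (median -0.44) and 8 of 14 in females (median -0.30), and 0 were called higher in either sex by limma (1 in males and 0 in females at an unadjusted p under 0.05). After Tars, the lowest estimates in males were Gars at -0.80 ± 0.06, with -0.69 and -0.91 on the arrays, and Eprs at -0.71 ± 0.06, with -0.80 and -0.61. In females the same ratio was -0.26 ± 0.06 for Gars and -0.62 ± 0.06 for Eprs.

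**Figure D2:**
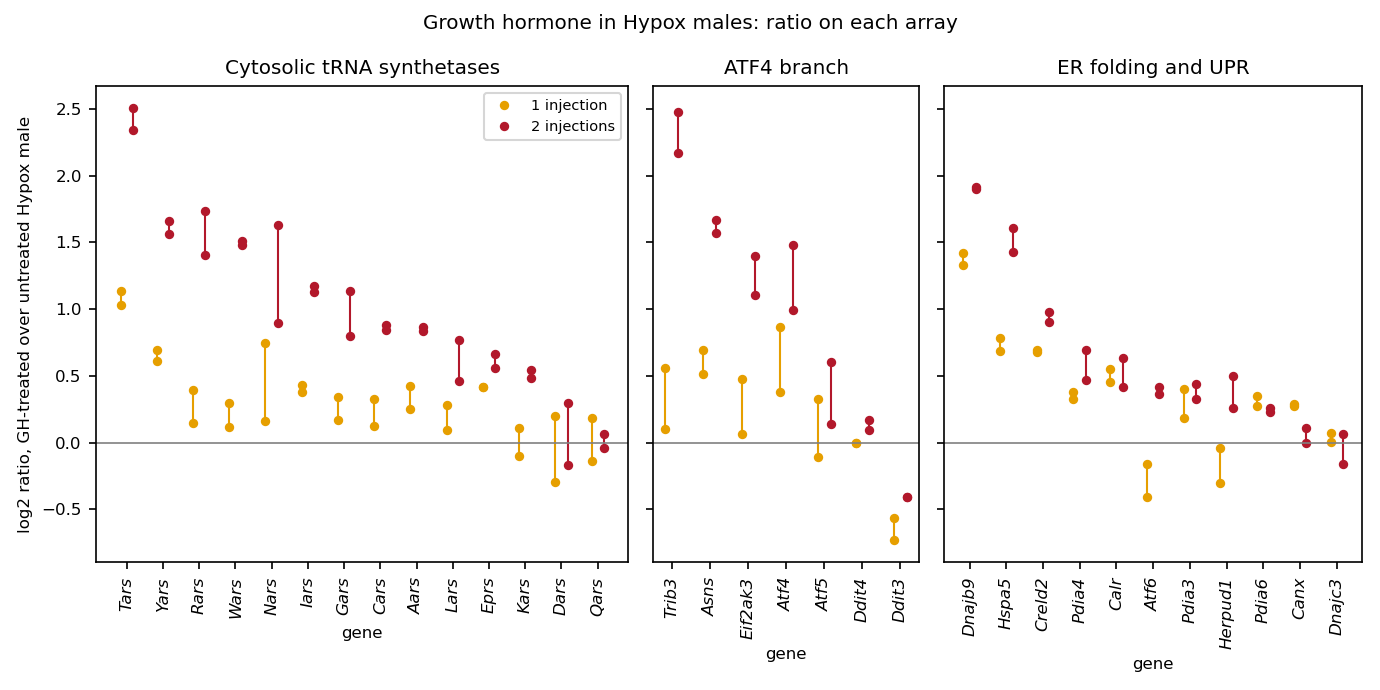
Log2 ratio of GH-treated over untreated Hypox males on each of the 2 arrays (points joined by a line) for 32 genes in 3 panels; orange is 1 injection and red 2 injections. Tars, Yars, Rars and Wars lie above 1.4 on both arrays with 2 injections, Qars and Dars straddle 0, and Ddit3 lies below 0 on all 4 arrays.

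The upstream sequences are shown because ATF4 is known to act on synthetase genes and 12 of the 14 synthetases were called higher after 2 injections. RefSeq promoter windows of build GRCr8, 250 bases before to 50 after the start, were listed for 26 of the 32 genes, and not for Dars, Gars, Rars, Atf6, Pdia3 and Pdia6. The core of the amino acid response element bound by ATF4 with C/EBP partners, TGATGNAA on either strand, was found in 8 of the 26 windows. They are 6 of 11 synthetases, Trib3 and Herpud1. Of all 27457 listed windows, 1046 (3.81%) held it. Stretches run 5′ to 3′ on the gene's strand with the matched letters in capitals, which appear as TTNCATCA where the match is on the other strand.
Tars, chr2:62114803-62114853, minus strand, match 27 bases before the start: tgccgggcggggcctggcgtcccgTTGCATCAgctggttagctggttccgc
Nars, chr18:60275783-60275820, minus strand, match 14 bases before the start: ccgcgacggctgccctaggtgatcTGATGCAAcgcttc
Iars, chr17:15193658-15193687, minus strand, match 24 bases before the start: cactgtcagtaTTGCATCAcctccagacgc
Trib3, chr3:161275534-161275578, minus strand, match 21 bases before the start: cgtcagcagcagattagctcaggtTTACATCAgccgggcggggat
Herpud1, chr19:10614873-10614902, minus strand, match 184 bases before the start: accacggcgggTTGCATCAgcccgcaccct
Cars and Yars each held 1 match, after the start. The 6 synthetases with the core and Trib3 had estimates between 0.85 and 2.43 after 2 injections, and Herpud1 had 0.38. Synthetases without it in this window included Wars, at 1.50, and Qars, at 0.01. A match is a description of these letters and shows no binding. The stretches of Iars and Herpud1 lie inside their windows, before the gene's start site there, but within the listed span of their gene. The windows of Asns, Ddit3, Atf4 and Atf5 did not hold these letters.

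In the ATF4 branch, Atf4 itself was higher after both GH treatments. Its log2 ratios were 0.87 and 0.38 on the arrays with 1 injection and 1.48 and 0.99 with 2 injections, all above 0. The estimates were 0.62 ± 0.05 (limma adjusted p = 0.000204) and 1.24 ± 0.05, both called, and 2 injections exceeded 1 by 0.62 ± 0.07. The dye coefficient of this probe was called, at -0.45. Hypox over intact rats gave -0.27 ± 0.05 in males and -0.23 ± 0.05 in females, both called, with 1 array of each pair near 0 (-0.06 and -0.03).

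Trib3, which is induced by ATF4 and CHOP, had the largest estimate of the 32 genes for 2 injections over 1. Its ratios were 0.10 and 0.56 with 1 injection, and 2.17 and 2.48 with 2 injections. Only the second pair lies clear of 0. After 1 injection Trib3 was not called (0.33 ± 0.26, limma adjusted p = 0.448), and after 2 it was 5.01-fold higher (2.32 ± 0.26, adjusted p = 0.000301). The excess of 2 injections over 1 was 1.99 ± 0.37 (adjusted p = 0.0136). In Hypox over intact males it had -1.32 and -2.35, the lowest estimate of the 32 genes (-1.84 ± 0.26, adjusted p = 0.00108), and in females -0.25 and -1.14, which was not called (-0.70 ± 0.26, adjusted p = 0.068).

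Eif2ak3, which encodes the eIF2 kinase PERK, had 1.11 and 1.40 with 2 injections and was called, 2.38-fold higher (1.25 ± 0.13). With 1 injection it had 0.06 and 0.48 and was not called. It was called in no comparison of hypophysectomy or sex. Asns, which makes asparagine, had 0.51 and 0.69 with 1 injection and 1.67 and 1.57 with 2 injections. It was higher after both (0.60 ± 0.09 and 1.62 ± 0.09, adjusted p = 0.0048 and 1.26e-05). Atf5, a transcription factor related to ATF4, had 0.11 ± 0.17 and 0.37 ± 0.17 and Ddit4, an inhibitor of mTORC1 signalling, 0.00 ± 0.06 and 0.13 ± 0.06 after 1 and 2 injections, and neither was called.

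Ddit3, which encodes the pro-apoptotic factor CHOP, was higher in Hypox rats of both sexes and lower after both GH treatments. Its ratios of Hypox over intact were 1.11 and 0.91 in males and 1.32 and 1.25 in females. All 4 arrays place it higher in Hypox rats, by 2.02-fold in males (1.01 ± 0.07, limma adjusted p = 2.68e-05) and 2.44-fold in females (1.29 ± 0.07, adjusted p = 7.55e-06). After GH it had -0.73 and -0.57 with 1 injection and -0.41 and -0.41 with 2. Ddit3 was the only one of the 32 genes called lower after GH, at -0.65 ± 0.07 (adjusted p = 0.000757) and -0.41 ± 0.07 (adjusted p = 0.002). The 2 treatments were not called different from each other (0.24 ± 0.09, adjusted p = 0.157).

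**Figure D3:**
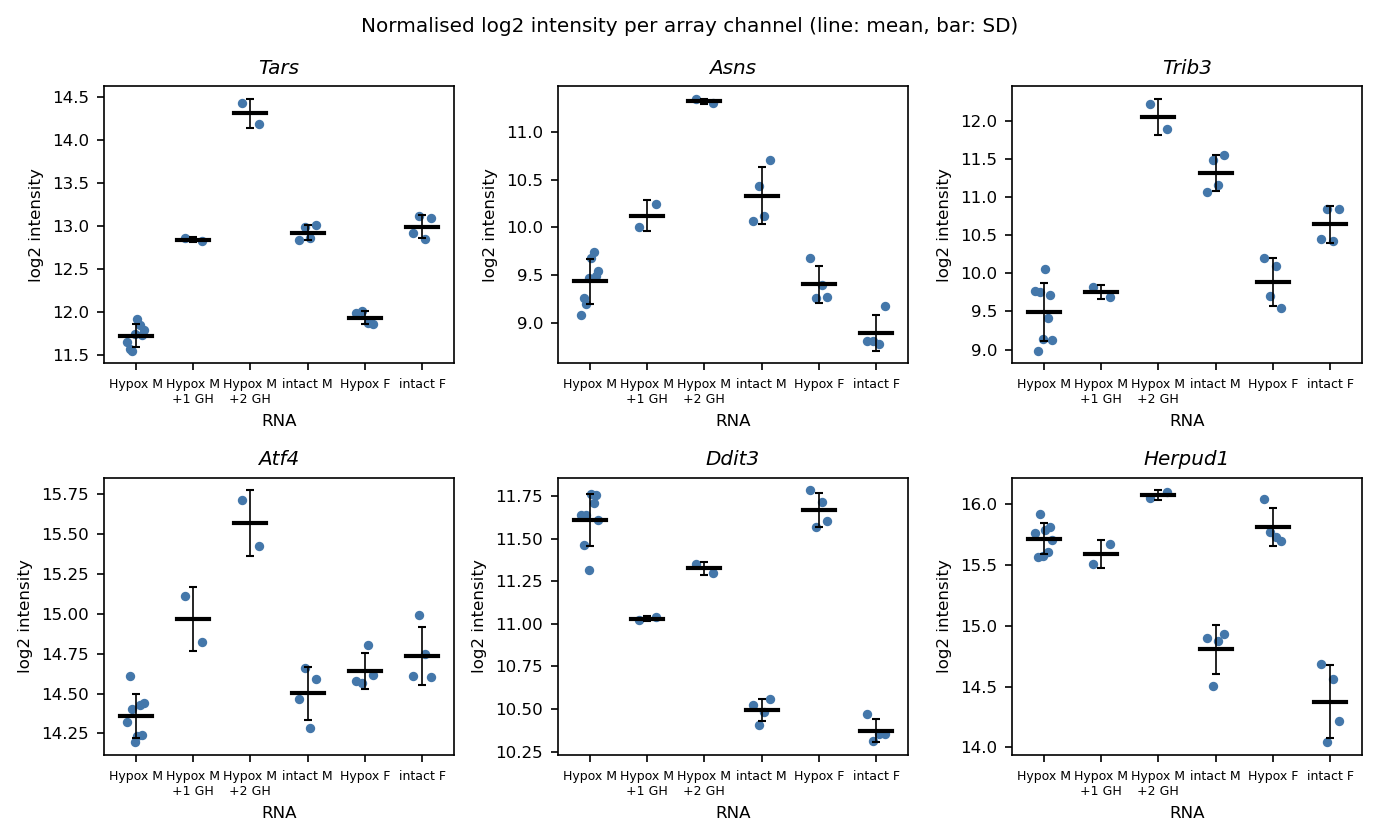
Normalised log2 intensity (vertical axis, arbitrary units, 1 probe per gene) of 6 genes in each RNA; points are single array channels, lines the mean and bars the SD, with n = 8 channels for untreated Hypox males, 2 for each GH pool and 4 for the others. Tars is highest with 2 injections at 14.31, Ddit3 is higher in Hypox than in intact rats, and Asns is lowest in intact females at 8.89.

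Among ER genes, the co-chaperone Dnajb9 (ERdj4), a target of the IRE1 arm, had the largest GH response. Its ratios were 1.33 and 1.42 with 1 injection and 1.92 and 1.90 with 2, with arrays of a pair within 0.1 of each other. Dnajb9 was 2.60-fold higher after 1 injection (1.38 ± 0.10, limma adjusted p = 0.000179), the largest estimate of the 32 genes there, and 3.76-fold higher after 2 (1.91 ± 0.10, adjusted p = 8.99e-06). The difference between the treatments was not called (0.53 ± 0.14, adjusted p = 0.0524). The ER chaperone Hspa5 had 0.68 and 0.78 with 1 injection and 1.43 and 1.61 with 2, and was called after both (0.73 ± 0.17, adjusted p = 0.0243, and 1.52 ± 0.17, adjusted p = 0.000298).

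Creld2, an ER-stress-induced protein with disulfide isomerase activity, had 0.68 and 0.70 with 1 injection and 0.98 and 0.91 with 2 (0.69 ± 0.12 and 0.94 ± 0.12, both called). The lectin chaperone Calr had 0.50 ± 0.10 and 0.52 ± 0.10, both called. The disulfide isomerase Pdia6 had 0.31 ± 0.06 and 0.24 ± 0.06, both called, but under median centring its value after 2 injections was -0.27, and its second probe gave 0.06 there. Pdia4, another isomerase, was called only after 2 injections (0.58 ± 0.11), and the lectin chaperone Canx only after 1 (0.28 ± 0.08). Over the 11 ER genes, 6 were higher after 1 injection and 7 after 2, and 0 were called by limma for 2 injections over 1 (4 higher and 0 lower at an unadjusted p under 0.05).

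With hypophysectomy 8 of 11 ER genes were lower and 1 higher in males, and 4 lower and 1 higher in females. Hspa5 had -1.43 and -0.45 in males and -0.99 and -0.51 in females (-0.94 ± 0.17 and -0.75 ± 0.17, limma adjusted p = 0.00348 and 0.00978). Creld2 (-0.67 ± 0.12 and -0.78 ± 0.12), Calr (-0.66 ± 0.10 and -0.57 ± 0.10) and Pdia4 (-0.47 ± 0.11 and -0.71 ± 0.11) were lower in both sexes. Herpud1, which serves ER-associated degradation, went the other way, with 1.01 and 1.06 in males and 1.35 and 1.73 in females. It was 2.05-fold higher in Hypox than in intact males (1.04 ± 0.12, adjusted p = 0.000371) and 2.91-fold higher in Hypox than in intact females (1.54 ± 0.12, adjusted p = 5.22e-05). Its second probe gave 0.89 and 1.37. After GH, Herpud1 was not called with 1 injection (-0.17 ± 0.12) and was called higher with 2 (0.38 ± 0.12), a value that was -0.17 under median centring. The ER stress sensor Atf6 and the isomerase Pdia3 were called in no comparison. Dnajc3, an inhibitor of eIF2 kinases, was lower in Hypox than in intact males by a small amount (-0.17 ± 0.05), a value that was 0.015 under median centring.

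**Figure D4:**
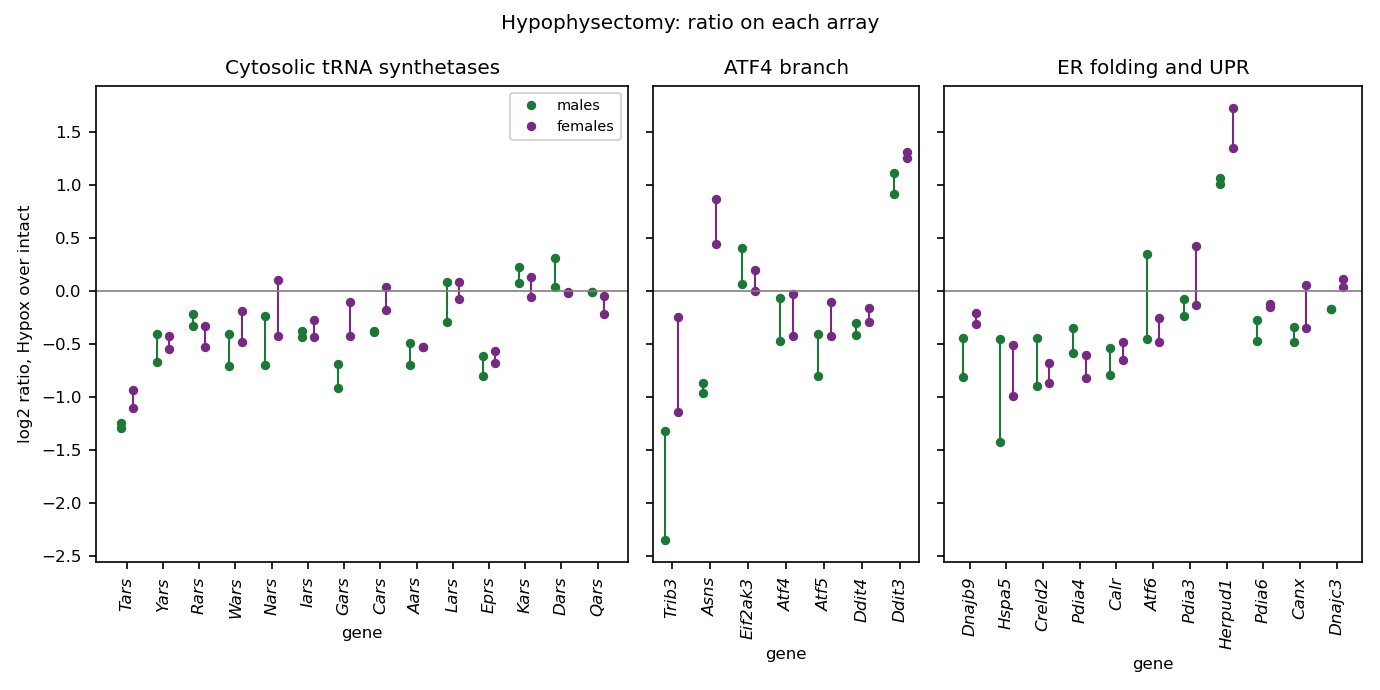
Log2 ratio of Hypox over intact rats on each of the 2 arrays (points joined by a line) for 32 genes in 3 panels; green is males and purple females. Ddit3 and Herpud1 lie above 0.9 on all 4 arrays, Tars lies below -0.9 on all 4, and Asns lies below 0 in males and above 0 in females.

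The ER stress element, CCAAT and CCACG with 9 bases between them on either strand, is the site through which ATF6 and NF-Y act on ER chaperone genes. It was found in 5 of the 8 ER gene windows, in 0 of the other 18, and in 19 of all 27457 windows (0.0692%). No match of it overlapped a match of the amino acid response core. The unfolded protein response element TGACGTGG was in 0 of the 26 windows and in 172 of all (0.626%). The capitals mark the match and its 9 inner bases.
Hspa5, chr3:38452949-38453015, plus strand, match 43 bases before the start: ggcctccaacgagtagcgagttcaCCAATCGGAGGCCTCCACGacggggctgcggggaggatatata
Creld2, chr7:121789234-121789263, plus strand, match 145 bases before the start: cttctCGTGGCGAGCCTCAATTGGtccaca
Calr, chr19:40213117-40213177, plus strand, match 232 bases before the start: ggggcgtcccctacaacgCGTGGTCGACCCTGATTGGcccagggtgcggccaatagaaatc
Canx, chr10:35158045-35158107, minus strand, match 230 bases before the start: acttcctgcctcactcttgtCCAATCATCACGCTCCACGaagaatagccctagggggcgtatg
Dnajc3, chr15:102432510-102432576, plus strand, match 133 bases before the start: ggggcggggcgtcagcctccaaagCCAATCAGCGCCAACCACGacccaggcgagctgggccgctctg
Hspa5, Creld2, Calr and Canx were called higher after 1 injection and lower in Hypox than in intact males. Dnajc3, with the same element, had 0.04 ± 0.05 after 1 injection and was also called lower in Hypox males (-0.17 ± 0.05). In Hypox over intact females Hspa5, Creld2 and Calr were called lower. Canx (-0.15, limma adjusted p = 0.175) and Dnajc3 (0.08) were not called there. After 2 injections Hspa5, Creld2 and Calr were called higher and Canx was not. The call of Canx after 1 injection was kept in 2 of 14 other settings, and its direction only in 12. Dnajb9, with the largest response after 1 injection, did not hold these letters in its window. The Creld2 stretch lies inside its window, before the gene's start site there, but within the listed span of its gene.

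Between the sexes, the share of the 32 genes that was called lay near that of all named genes, in intact and in Hypox rats. In intact males over intact females 5 genes were higher and 1 lower, where 9.39% of named genes were called higher and 8.95% lower. Asns had 1.34 and 1.53 and was 2.71-fold higher in intact males than in intact females (1.44 ± 0.09, limma adjusted p = 3.03e-05). Gars had 0.41 and 0.52 (0.47 ± 0.06, adjusted p = 0.00127) and Herpud1 0.32 and 0.71 (0.51 ± 0.12, adjusted p = 0.02). Nars (0.30 ± 0.08) and Dnajc3 (0.27 ± 0.05) were called higher, and the second Nars probe gave 0.00. Atf4 was called lower, with -0.46 on one array and -0.01 on the other (-0.24 ± 0.05). Without replicate 1, and likewise without replicate 2, 2 of the 32 genes were called.

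In Hypox males over Hypox females 0 of 32 genes were called by limma, and 7 had an unadjusted p under 0.05. Of named genes, 1.16% were called in either direction there. The estimates ranged from -0.44 for Trib3 to 0.44 for Atf6. Without background correction 2 genes were called, both lower. Asns had -0.32 and -0.02 in this comparison (-0.17 ± 0.09, adjusted p = 0.485).

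The change with hypophysectomy was compared between males and females directly, as the mean of both estimates of that difference, males minus females. The first estimate was Hypox over intact in males minus that in females. The second was Hypox males over Hypox females minus intact males over intact females, so the sex ratio in intact rats is part of it. A negative value means that Hypox over intact was lower in males. The difference was called for 9 of 32 genes, all negative, where 6.91% of named genes were called higher and 8.58% lower. The median was -0.15 over the 32 genes and 0.00 over all named genes. Asns had the largest difference (-1.59 ± 0.09, limma adjusted p = 2.79e-05). It fell in Hypox males (-0.87 and -0.96 on the arrays, -0.92 ± 0.09) and rose in Hypox females (0.87 and 0.44, 0.65 ± 0.09), each against intact rats of the same sex. The direction of Asns thus differed between the sexes on all 4 arrays. Trib3 followed with -1.15 ± 0.26, then Herpud1 with -0.54 ± 0.12 and Gars with -0.52 ± 0.06. This contrast uses the same intact and Hypox RNAs as the sex comparisons above. Its count was 4 to 5 with the deposited processed signals, the smaller normexp offset, the value table or no dye term, and 2 with each comparison fitted alone. Without replicate 1 it was 16 (5 higher, 11 lower), and without replicate 2 it was 22 (3 higher, 19 lower). Those fits take their spread from the GH arrays alone and called 10124 and 9914 of 23834 probes, against 3211 with all arrays.

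Counts in the other comparisons also depended on single arrays. Without 1 array, the count of called genes was 16 to 24 of 32 for hypophysectomy in males (16 without replicate 1), 7 to 11 in females, 4 to 5 after 1 injection and 20 to 21 after 2. For 2 injections over 1, where the same replicate of both GH comparisons was left out, it was 2 to 4. Fitted from its own arrays alone, hypophysectomy in males gave 9 genes and 1 injection gave 7.

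Genes outside the set but in the same pathways were read from further lists. Of 5 other cytosolic synthetase components, 4 were higher after 2 injections (median 0.70). They include Aimp1, a scaffold of the multi-synthetase complex, with 1.35 and 1.15 on the arrays (1.25 ± 0.06, limma adjusted p = 6.06e-06), and Farsb, the beta subunit of the phenylalanyl enzyme (0.82 ± 0.10). Of 13 genes listed by symbol as mitochondrial synthetases, 2 were higher and 5 lower after 2 injections (median -0.15). They include a probe labelled Hars2, as a predicted gene, at -0.33 ± 0.08, and Rars2 at 0.41 ± 0.06. Whether the Hars2 probe measures the mitochondrial histidyl enzyme was not checked, and it enters the count and the median. The cytosolic synthetases of the set had a median of 0.92 after 2 injections. The difference between these lists was not tested. Of 13 eIF2 kinases and eIF2 and eIF2B subunits, 5 were higher and 1 lower, led by the eIF2 subunits Eif2s1 (1.12 ± 0.05) and Eif2s2 (0.95 ± 0.05).

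Other targets of ATF4 were mixed. Of 21 tested, 10 were higher and 3 lower after 2 injections (median 0.25). Atf3, a stress-induced transcription factor, had 3.55 and 3.21 (3.38 ± 0.19, limma adjusted p = 1.15e-05), and the hepatic hormone Fgf21 had 3.14 and 2.44 (2.79 ± 0.49, adjusted p = 0.00294). Cth, the cystathionine cleaving enzyme, was lower (-1.13 ± 0.16). In intact males over intact females 4 of 20 were higher and 4 lower. Phgdh, the first enzyme of serine synthesis, had 1.87 and 2.47 (2.17 ± 0.29, adjusted p = 0.0017), and its change with hypophysectomy differed between the sexes by -2.17 ± 0.29, the same direction as Asns.

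Of 31 other genes of ER folding, degradation and translocation, 17 were lower and 2 higher in Hypox than in intact males, and 11 lower and 1 higher in Hypox than in intact females. After 1 injection 7 were higher and 0 lower by limma (14 higher and 0 lower at an unadjusted p under 0.05), and after 2 injections 17 were higher and 1 lower (median 0.27). The secreted ER stress protein Manf had 1.92 and 1.59 after 2 injections (1.76 ± 0.10, limma adjusted p = 1.11e-05), the COPII coat protein Sec23b 1.60 and 1.50 (1.55 ± 0.08) and the ER chaperone Hyou1 1.48 and 0.71 (1.10 ± 0.18). Manf and Hyou1 were also lower with hypophysectomy, at -1.04 ± 0.10 and -0.81 ± 0.18 in males.

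**Figure D5:**
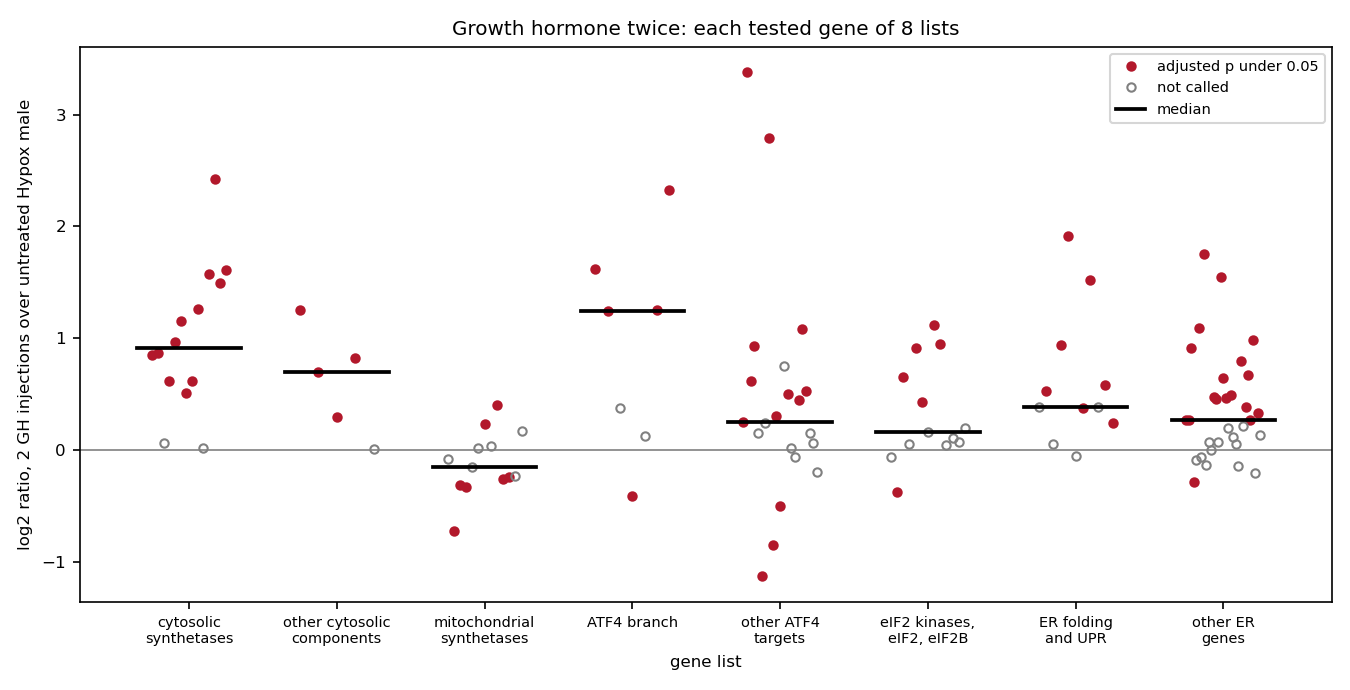
Log2 ratio after 2 GH injections over untreated Hypox males (vertical axis, limma estimate) of each tested gene in 8 lists (horizontal axis); red points have an adjusted p under 0.05, open points do not, and bars are medians. The median is 0.92 for the cytosolic and -0.15 for the mitochondrial synthetases, which were listed by symbol.

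Markers of liver and other cells were read in the same comparisons. With hypophysectomy, 20.1% of named genes were called higher and 20.9% lower in males, and 19.1% and 20.5% in females. After 1 injection the shares were 9.32% higher and 7.36% lower, and after 2 injections 18.5% and 18.1%. The lists are short, and a count near these shares shows no particular movement of a cell type. Of 4 red cell markers, 3 were lower and 1 higher in Hypox than in intact males (from -3.69 to 0.85), and in females the counts were the same (from -1.48 to 0.86). After 1 injection 2 of the 4 were called higher (from -0.68 to 2.45), and after 2 injections 2 were higher and 2 lower (from -0.80 to 1.54). Of 9 macrophage markers, 6 were higher and 1 lower after 1 injection (from -0.39 to 0.44), and 0 were called by limma after 2 (from -0.16 to 0.10, with 1 lower at an unadjusted p under 0.05). These red cell and macrophage markers were well above background in all 24 channels. With hypophysectomy, 4 of 9 lymphocyte markers were higher and 0 lower by limma in each sex, and 0 were lower at an unadjusted p under 0.05 (from -0.02 to 0.54 in males and from 0.06 to 0.43 in females). Of 6 endothelial markers, 4 were higher in each sex, and 1 was lower in males (from -0.22 to 0.55 in males and from -0.14 to 0.42 in females). Of 4 bile duct markers, 2 were higher and 0 lower by limma in each sex (from -0.06 to 1.82 in males and from -0.05 to 1.75 in females). They were Epcam and Sox9, at 1.82 ± 0.14 and 0.68 ± 0.12 in males. Of 6 stellate cell markers, 2 were higher and 2 lower in males (from -1.22 to 0.90). In females 1 was higher and 1 lower (from -1.37 to 0.55). Plasma cell markers were higher for 2 of 3 in males and 1 of 2 in females, and 0 were lower. Of the hepatocyte markers, 2 of 8 were higher and 2 lower in Hypox males (from -2.74 to 0.97), and 3 of 10 were higher and 1 lower in Hypox females (from -1.38 to 0.63). Of the acinar markers, 1 of 7 was higher and 1 lower in Hypox males (from -0.52 to 1.64), and 1 of 9 was higher and 3 lower in Hypox females (from -4.15 to 1.18). The part of all these markers in the results above was not tested.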

How the data were processed

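Liver RNA of 12 two-colour Agilent arrays was analysed, 2 per comparison with dyes exchanged. Each deposited file gives the mean and background intensity of 45018 spots per colour and, per the file headers, a log10 ratio of processed signals, from Agilent Feature Extraction 9.1.3.1. The deposited flags are scores of 0 or 1 for spots above background, saturated or outlying. The series' deposited value table was found from the values to hold log2 ratios of channel 2 to channel 1.

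Intensities were background-corrected (normexp, offset 50) and loess-normalized within arrays in limma 3.58.1 under R 4.3.3. The loess gave weight 0 to the 1639 control spots and to outliers. Each ratio is channel 2 over channel 1, after the labelled dyes, averaged over the spots of each of 41012 probes. Tests took the 29008 probes with at least 1 RNA flagged as well above background on both arrays of a comparison. One limma model per probe had 6 comparisons and a dye term (5 residual degrees of freedom, prior 3.08, prior SD 0.101). The comparisons share this spread, although the GH arrays lie on 1 slide with 1 treated pool each and the others on 2 slides with different pools. For the others the spread may be too small. The sources used here do not link pools to arrays. For the GH pools, used on both arrays, p-values cover technical spread and that of the Hypox pools only. Precision is limited by having 2 arrays a comparison.

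The genes and lists were chosen with earlier results of these data known. Symbols were matched without _predicted and _mapped. Any of the 32 genes could be named. Full statistics went to called genes with the same sign on both arrays, at most 8 per comparison by size, and further lists gave at most 3 called genes per comparison. RefSeq genes and promoters (GRCr8) were matched by accession, symbol or synonym for 31 of the 32 genes. The value of 1 listed gene and 1 promoter stretch are not reported here. Alternatives were 14 other settings. The script was tested on simulated data.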

Additional observations from a re-analysis of the deposited data

Results flagged for a closer look

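The change with hypophysectomy, males minus females, passed the limma test of the difference for 9 genes. The values were -0.52 for Gars, -0.24 for Wars, -1.59 for Asns, -0.28 for Ddit3, -1.15 for Trib3, -0.38 for Dnajb9, -0.23 for Dnajc3, -0.54 for Herpud1 and -0.25 for Pdia6. In Hypox over intact rats, Asns was called in opposite directions in males and females, Gars and Wars were called lower in both sexes, and Ddit3 and Herpud1 were called higher in both. The other 4 were called lower in males and not called in females, where Dnajc3 had 0.08, against -0.17 in males, and Trib3, Dnajb9 and Pdia6 were below 0 in both. The second Pdia6 probe was called lower in females too, at -0.32. For the difference between the sexes, the second probes of Dnajb9 (-0.39) and Herpud1 (-0.53) were called. Those of Wars (-0.08) and Pdia6 (-0.16) were not. The call was kept in 4 of 14 other settings for Dnajb9, the fewest, and in 13 for Asns and Gars, the most. No group had the 4 or more arrays that a check for single outlying arrays needs.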

How the results depend on the processing

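The counts of called genes were 6 in intact males over intact females, 25 with hypophysectomy in males, 17 in females, 0 in Hypox males over Hypox females, 16 after 1 injection, 24 after 2, 9 for the difference between the sexes and 15 for 2 injections over 1. Median centring in place of loess gave 0 in all of them by limma, with 1, 5, 3, 0, 2, 10, 2 and 1 at an unadjusted p under 0.05. It called 261, 345 and 371 probes in the first 3, 73 after 2 injections, 117 for the difference between the sexes and 0 after 1 injection. It turned Dnajc3 in Hypox males to 0.015, and after 2 injections Herpud1 to -0.17 and Pdia6 to -0.27. It also moved the median of all probes, which was then -0.13 in intact males over females, 0.10 with hypophysectomy in males, -0.11 in Hypox males over Hypox females, -0.11 after 2 injections and -0.13 for 2 injections over 1, against -0.01 to 0.01 with loess. Comparisons fitted alone gave 9 with hypophysectomy in males, 7 after 1 injection, 2 for the difference between the sexes and 4 for 2 injections over 1. No background correction gave 2 in Hypox males over Hypox females. For the difference between the sexes, processed signals, offset 10 and the value table each gave 4 and no dye term gave 5. Apart from the wider spread under median centring, the cause was not tested. Without 1 replicate the counts ranged from 2 to 2, 16 to 24, 7 to 11, 4 to 5, 20 to 21, 16 to 22 and 2 to 4 for the comparisons with calls, in the order above. Of 1566 values of single called genes, 1237 kept direction and call, 326 kept direction only and 3 reversed.

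Same-numbered arrays of different comparisons deviated together with mixed signs (r from -0.68 to 0.86). With untreated Hypox male RNA on the same side of both ratios, r was 0.86 and 0.74. With it on opposite sides, r ran from -0.68 to -0.32. Comparisons that share no RNA gave r from -0.54 to 0.42. Mixed signs therefore do not settle whether the numbers link samples. The sources do not link pools to arrays, so this was not tested, and the main model left the numbers out. With the replicate number as a block the counts were 6, 24, 17, 0, 15, 24, 7 and 15.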
